A study of Mus musculus with 4 samples.

Results

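Lin28a, Lin28b, Trim71, Dis3l2, Dicer1, Drosha, Dgcr8, Ago2 and Hmga2 are 9 genes that make, block or answer to the let-7 microRNAs. They were chosen by name from the 26301 genes of a count table of mouse embryonic stem cells (ESCs), and all 9 passed the filter on low counts that left 15444 genes for testing. The table names 6 of them by these symbols and lists Lin28a, Drosha and Ago2 under the older symbols Lin28, Rnasen and Eif2c2, matched here by Entrez identifier. RNA-seq was done on 2 libraries of WT ESCs (line N6) and 2 of Rest-/- ESCs (line N8), which lack REST, a repressor of neuronal genes. Each genotype is represented by 1 line, so genotype and line cannot be told apart. Culture was in LIF and serum. The lines came off irradiated embryonic fibroblast feeders, and a few feeder-free passages on gelatin preceded the RNA preparation.

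DROSHA with its partner DGCR8 cuts let-7 hairpin precursors from their primary transcripts, and LIN28A and LIN28B bind the loop and block processing, in part by having precursors tailed with uridines for decay by the exonuclease DIS3L2. Precursors that escape are cut by DICER1 and loaded into AGO2, where the mature strand silences messages such as Hmga2, Trim71 and the Lin28 genes themselves. ESCs are known for high LIN28A and little mature let-7, a balance that turns over as they differentiate.

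The mature let-7 sequences show what the targets in this group have to pair with. The capitals mark the seed, bases 2 to 8, which all 9 family sequences in RefSeq (GRCm38.p6) share. Of the 1679 mature miRNAs in that set, 11 hold this seed at the same bases. The other members differ from let-7a at 1 to 4 positions, all outside the seed.
mmu-let-7a-5p: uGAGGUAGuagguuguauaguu
mmu-let-7c-5p: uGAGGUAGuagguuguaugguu
mmu-let-7d-5p: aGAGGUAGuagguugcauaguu
mmu-let-7g-5p: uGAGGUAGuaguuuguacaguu
mmu-let-7i-5p: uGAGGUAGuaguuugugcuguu
mmu-miR-98-5p: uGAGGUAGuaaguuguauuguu

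The stretch between the arms of the hairpin is shown because LIN28 proteins grip it, with GGAG (in capitals) as their best known contact. Of the 12 let-7 hairpins, 9 hold GGAG there, and Mirlet7b, Mirlet7c-2 and Mir98 do not. These 4 letters are common, and 447 of 1005 mouse hairpins (44.5%) hold them at some position. The first 3 hairpins lie on GRCm38.p6 at chr13:48538179-48538272, on the minus strand, at chr9:41536716-41536811, on the plus strand, and at chrX:151912346-151912428, on the plus strand. Mirlet7c-2, at chr15:85706603-85706697 on the plus strand, is given for contrast.
Mirlet7a-1: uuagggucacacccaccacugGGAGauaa
Mirlet7a-2: uagaguuacaucaagGGAGauaa
Mirlet7f-2: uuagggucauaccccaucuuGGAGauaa
Mirlet7c-2: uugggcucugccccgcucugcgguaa

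Poly-A libraries do not measure mature miRNAs. Rows for all 12 let-7 hairpin genes were in the table, with at most 17 counts in any library. Mirlet7d had 17 counts in WT replicate 1, 5 in WT replicate 2, 8 in Rest-/- replicate 1 and 0 in Rest-/- replicate 2. Mirlet7i had 4, 0, 2 and 2 in the same order, and each of the others had 3 counts or fewer in every library. Of the 372 miRNA rows of the table, 252 were at 0 in all 4 libraries. What follows therefore concerns the messages of the control genes and not the amount of let-7.

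The target side of the circuit is visible in the 3' UTRs. The seed match CTACCTC occurred 13 times in the annotated 3' UTRs of 5 of the 9 genes (GENCODE on mm9), and 8.80% of 20007 genes with a 3' UTR held it at least once. Lin28b and Hmga2 each had 4 matches, Lin28a and Trim71 had 2, and Ago2 had 1. No match was found in the 3' UTRs of Dis3l2, Dicer1, Drosha or Dgcr8. In 6 matches, spread over Lin28a, Lin28b, Trim71 and Hmga2, the seed match was followed by an A, a longer form that 3.01% of genes held. The following sites, all exonic and on the minus strand of mm9, show the seed match in capitals with the bases around it. They lie, in order, at chr4:133561104-133561125, chr4:133560466-133560487, chr10:45100828-45100849, chr9:114421590-114421611, chr9:114421494-114421515, chr10:119801280-119801301 and chr15:72932154-72932175.
Lin28a, proximal site: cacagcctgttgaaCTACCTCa
Lin28a, distal site: agatcgccacaaacCTACCTCa
Lin28b, first site: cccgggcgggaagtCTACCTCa
Trim71, proximal site: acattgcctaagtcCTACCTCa
Trim71, distal site: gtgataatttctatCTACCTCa
Hmga2, first site: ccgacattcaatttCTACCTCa
Ago2, single site: cagatgcataaaagCTACCTCt

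The first sites of Lin28b and Hmga2 began 36 and 58 bases into their 3' UTRs, which are 4445 and 3014 bases long. The Trim71 sites began at bases 166 and 262 of 1370, and those of Lin28a at bases 909 and 1547 of 2775. The Ago2 match lay near the far end, at base 5177 of 5283.

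**Figure D1:**
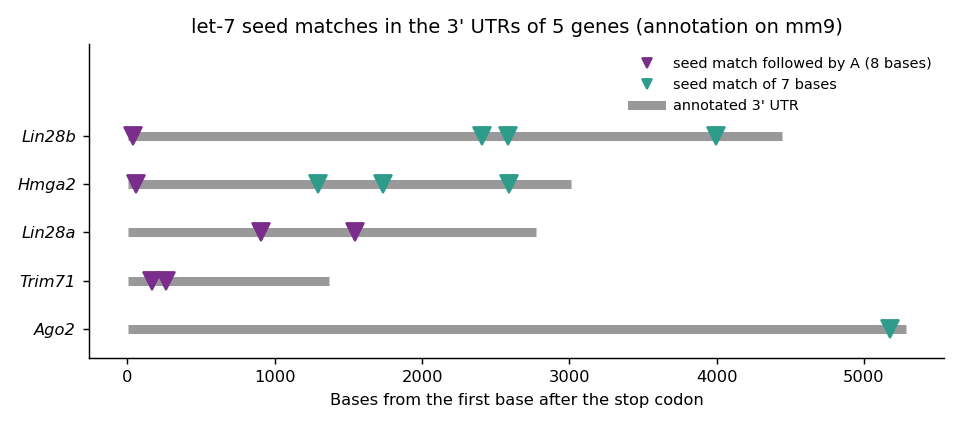
Position of let-7 seed matches along the annotated 3' UTRs (grey bars, bases from the stop codon) of the 5 genes that hold one. Purple triangles are the 6 matches followed by an A and green triangles the other matches of 7 bases; the first matches of Lin28b, Hmga2 and Trim71 sit close to the stop codon and the single match of Ago2 lies at the distal end.

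Depth ranged from 22293966 counts (Rest-/- replicate 2) to 30953863 counts (WT replicate 1), and values are given as CPM, counts divided by a library size that edgeR's TMM method scales. Rest, the disrupted gene, was lower in Rest-/- ESCs, at 4244 and 3890 counts against 7908 and 6233 in WT. Its log2 fold change of -0.52 (standard error 0.13) did not pass edgeR's quasi-likelihood test (adjusted p 0.526), and the counts do not show which of its exons were read. Of the 9 pluripotency markers, all tested, 0 were called, with a median log2 fold change of -0.10 and a summed level of 4828 and 4688 CPM in WT and 4132 and 4249 CPM in Rest-/- ESCs. In 3 of them, Zfp42 (log2 fold change -1.36), Nanog (-0.46) and Klf4 (-0.44), both Rest-/- libraries were below both WT libraries (15.4% of all tested genes) with an unadjusted p under 0.05 in edgeR's test (6.71% of all tested genes). Sox2 (-0.10) and Esrrb (-0.32) also lay below 0, and Utf1 (0.19, both Rest-/- libraries above WT), Pou5f1 (0.08), Tdgf1 (0.03) and Dppa5a (0.02) lay above. The part of these markers in the levels of the Lin28 and let-7 genes was not tested. Of 10 feeder fibroblast markers 8 were tested, Lum was at 0 in all 4 libraries and Dcn had at most 5 counts. Their summed level was 36.2 and 28.7 CPM in WT against 109 and 28.1 CPM in Rest-/- ESCs, so Rest-/- replicate 1 stood apart. All 10 primitive endoderm markers lay above 0 (median log2 fold change 0.71, summed 258 and 429 against 521 and 629 CPM), with 0 called. Both Rest-/- libraries lay above both WT libraries for 7 of the 10 (16.5% of all tested genes) and below them for 0. In edgeR's test 3 had an unadjusted p under 0.05 (6.71% of all tested genes). Of 8 neural markers 6 were tested (median 0.06, summed 254 and 359 against 317 and 383 CPM), and 7 markers of the primed or formative state had a median of 0.31 (summed 393 and 603 against 547 and 683 CPM), again with 0 called in either list.

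Across the 9 genes, no difference between the genotypes passed the test in the fit of genotype alone, which does not use the replicate number. The call changed for 3 of them with the replicate number in the fit, a setting described at the end. The Lin28 paralogs had the highest log2 fold changes in the fit to all 4 libraries, but without WT replicate 1 or Rest-/- replicate 2 Lin28a, at 0.09 or 0.11, lay below Hmga2 and Drosha. None of the 9 had an adjusted p under 0.05, where 9 of the 15444 tested genes (0.0583%) did, 8 with a higher and 1 with a lower level in Rest-/- ESCs. Before adjustment, edgeR's quasi-likelihood test gave only Lin28b a p under 0.05, against 6.71% of all tested genes. Both Rest-/- libraries lay above both WT libraries for Lin28b alone, a pattern of 16.5% of tested genes, and below them for Dgcr8 alone, a pattern of 15.4%. The median log2 fold change of the 9 genes was 0.09, with 5 above 0 and 4 below, beside a median of -0.0047 over all tested genes.

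**Figure D2:**
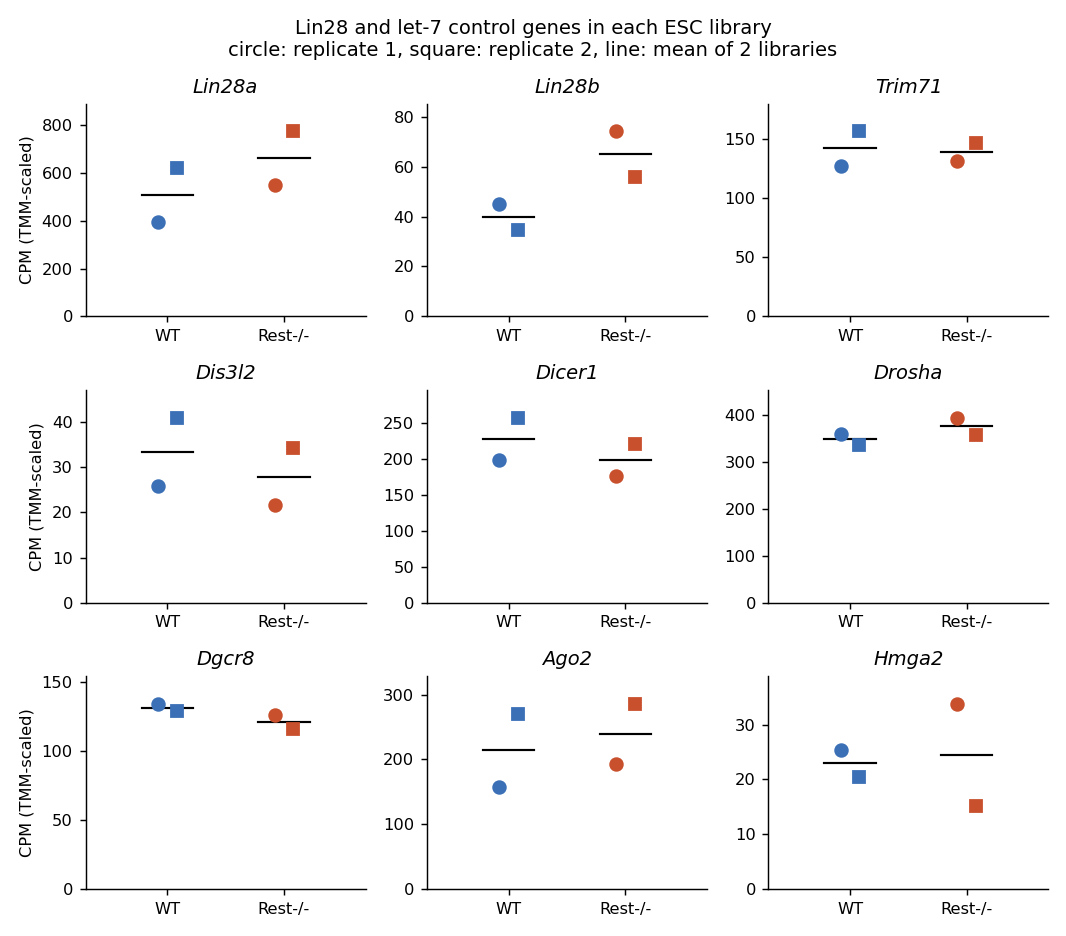
CPM of each gene (vertical axes, from 0) in the 2 WT (blue) and 2 Rest-/- (red) libraries, with circles for replicate 1, squares for replicate 2 and a line at each mean. The genotypes are apart for Lin28b, where Rest-/- lies above WT, and by a small margin for Dgcr8, where it lies below; the other 7 genes overlap.

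Lin28a and Lin28b encode paralogous RNA-binding proteins that keep let-7 precursors from being processed. Lin28a (chr4:133559245-133574756, minus strand, mm9) had 394 and 623 CPM in WT and 551 and 775 CPM in Rest-/- ESCs. The ranges overlapped, since WT replicate 2 lay above Rest-/- replicate 1. WT libraries averaged 508 ± 162 CPM (SD, n = 2) and Rest-/- libraries 663 ± 158 CPM (SD, n = 2). The fitted log2 fold change was 0.38 (standard error 0.30, 95% interval -0.40 to 1.17), or 1.31-fold (edgeR's quasi-likelihood test, adjusted p 1.00, as for every one of the 9 genes but Lin28b). Left out in turn, single libraries moved it between 0.09 and 0.75. In bulk RNA, a change in the share of cells that express a gene and a change in RNA per cell cannot be told apart. Of the gene's exonic bases, some are shared with Gm13061 on the opposite strand, and since the kit does not mark strand the reads of the pair were not separable.

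Lin28b (chr10:45096426-45206201, minus strand) had the largest difference of the 9 in the fit to all 4 libraries, but not without WT replicate 2 (0.54, below 0.75 for Lin28a) or without Rest-/- replicate 1 (0.50, below 0.61 for Lin28a). It had 44.9 and 34.5 CPM in WT and 74.1 and 56.0 CPM in Rest-/- ESCs, from 923 to 1914 counts per library. Both Rest-/- libraries were above both WT libraries, and within each replicate number the difference in log2(CPM + 0.5) was nearly the same, 0.72 and 0.69. WT libraries averaged 39.7 ± 7.36 CPM (SD, n = 2) and Rest-/- libraries 65.0 ± 12.8 CPM (SD, n = 2). The fitted log2 fold change was 0.71 (standard error 0.23, 95% interval 0.10 to 1.33), or 1.64-fold with bounds of 1.07 and 2.51. In edgeR's quasi-likelihood test of genotype alone the p was 0.0310 before and 0.680 after adjustment, so the gene was not called in that fit. Among all tested genes, 6.32% had a log2 fold change at least this high. Leaving out single libraries gave values from 0.50 to 0.91. The primitive endoderm markers also had higher summed levels in both Rest-/- libraries, and their part in this difference was not tested.

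**Figure D3:**
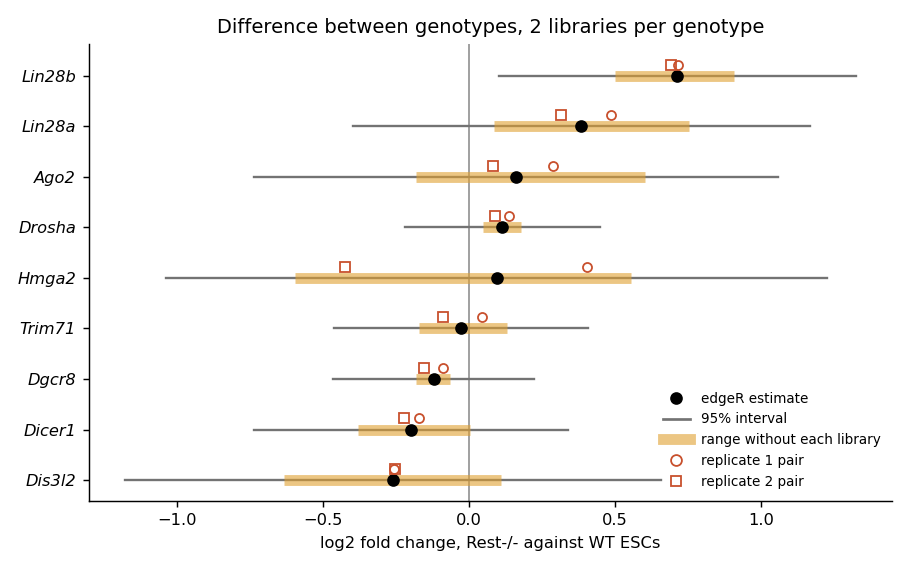
Log2 fold change of Rest-/- against WT for each gene (black points, edgeR estimate) with its 95% interval (thin lines), the range of the estimate without each library in turn (bands) and the differences within replicate numbers 1 (circles) and 2 (squares). The interval of Lin28b runs from 0.10 to 1.33, those of the other 8 genes include 0, and the band crosses 0 for 5 genes.

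Dis3l2 encodes the exonuclease that removes uridylated precursors. The gene (chr1:88600379-88946672, plus strand) had 25.9 and 41.0 CPM in WT and 21.6 and 34.3 CPM in Rest-/- ESCs. Replicate 2 was the higher library in both genotypes and the ranges overlapped. Its log2 fold change was -0.26 (standard error 0.35, 95% interval -1.18 to 0.66), with a difference of -0.26 within both replicate numbers. The sign rested on single libraries, since the value was 0.11 without WT replicate 2 and 0.04 without Rest-/- replicate 1.

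Drosha and Dgcr8 encode the nuclease and the RNA-binding partner of the Microprocessor, which releases hairpins from primary transcripts. Their differences had the smallest standard errors of the 9 genes. Drosha (chr15:12754570-12865045, plus strand) had 358 and 337 CPM in WT and 394 and 358 CPM in Rest-/- ESCs, a log2 fold change of 0.11 (standard error 0.13, 95% interval -0.22 to 0.45). Dgcr8 (chr16:18254041-18289342, minus strand) had 134 and 129 CPM in WT and 126 and 116 CPM in Rest-/- ESCs, a log2 fold change of -0.12 (standard error 0.13, 95% interval -0.47 to 0.22). The 2 genotypes did not overlap for Dgcr8, while for Drosha the lower Rest-/- library fell just under the higher WT library. Both signs held without each library in turn. Dgcr8 shares exonic bases with Trmt2a on the opposite strand, so its counts may hold reads of that gene. A match to 311 bases of its coding sequence on chromosome 3, at 99.0% identity, could also share reads with it.

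Dicer1 encodes the cytoplasmic nuclease that trims the hairpin to its mature length. Dicer1 (chr12:105925952-105990162, minus strand) had 198 and 257 CPM in WT and 176 and 220 CPM in Rest-/- ESCs. Replicate 2 was again higher in both genotypes, by more than the genotypes differed. The log2 fold change was -0.20 (standard error 0.20, 95% interval -0.74 to 0.34), and it was 0.0028 without WT replicate 2.

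Ago2 encodes the slicing Argonaute that carries the mature strand. The gene (chr15:72932055-73015377, minus strand) had 158 and 270 CPM in WT and 192 and 286 CPM in Rest-/- ESCs. Its replicates were farther apart than its genotypes, and the log2 fold change of 0.16 (standard error 0.34, 95% interval -0.74 to 1.06) became -0.18 without WT replicate 1 and -0.16 without Rest-/- replicate 2. A copy of its coding sequence on chromosome X matches it over 2594 bases at 93.3% identity, so its counts depend on how reads with several matches were assigned, which the sources used here do not give.

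Trim71 and Hmga2 are the classical targets of the group. Trim71, which encodes an RNA-binding ubiquitin ligase of early development (chr9:114420393-114473487, minus strand), had 127 and 156 CPM in WT and 131 and 147 CPM in Rest-/- ESCs. The Rest-/- values lay inside the WT range. Its log2 fold change of -0.03 (standard error 0.16, 95% interval -0.46 to 0.41) was 0.13 without WT replicate 2 and 0.05 without Rest-/- replicate 1.

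Hmga2, which encodes a chromatin protein of embryonic and mesenchymal cells (chr10:119798331-119913525, minus strand), had 25.4 and 20.5 CPM in WT and 33.8 and 15.1 CPM in Rest-/- ESCs. The highest and the lowest value were both Rest-/- libraries, and the differences within replicate numbers had opposite signs, 0.41 and -0.42. Its log2 fold change was 0.09 (standard error 0.43, 95% interval -1.04 to 1.23), and it was -0.60 without Rest-/- replicate 1 and -0.05 without WT replicate 2. Rest-/- replicate 1, where Hmga2 was highest, is also the library in which the summed feeder fibroblast markers reached 109 CPM, and their part in its level was not tested. A match to 295 bases of its coding sequence on chromosome 1, at 94.6% identity, could share reads with it. Hmga2 also shares 140 exonic bases with 1700006J14Rik on the opposite strand, so its counts may hold reads of that gene.

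The spread between replicates had a common direction. In all 9 genes the library numbered 2 differed from the library numbered 1 the same way in both genotypes, being higher for Lin28a, Trim71, Dis3l2, Dicer1 and Ago2 and lower for Lin28b, Drosha, Dgcr8 and Hmga2. For the first 5 of these, both differences between replicates were larger than both differences between genotypes on the log2(CPM + 0.5) scale. Lin28a, for instance, was higher in replicate 2 by 0.66 in WT and by 0.49 in Rest-/- ESCs, beside genotype differences of 0.49 and 0.32. The labels do not say what the replicate numbers share.

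Divided by the length of annotated exon, the levels of the 9 genes spanned a wide range in the same cells. Lin28a was highest, at 145 ± 46.2 CPM per kb (SD, n = 2) in WT ESCs and 189 ± 45.2 CPM per kb (SD, n = 2) in those without REST, above 97.6% of 14192 tested genes with a known length in WT. Drosha followed at 58.5 CPM per kb in WT and 63.3 in Rest-/- ESCs. Trim71, Ago2 and Dicer1 formed a middle group at 27.3, 26.6 and 22.6 CPM per kb in WT, in which Trim71 and Ago2, and Ago2 and Dicer1, overlapped between libraries. Dgcr8 (18.1 CPM per kb), Dis3l2 (10.4), Lin28b (4.38) and Hmga2 (3.39) came next in WT without overlap between neighbours. In Rest-/- ESCs Ago2 (29.8) and Trim71 (26.8) exchanged places but overlapped, and the libraries of Dis3l2 (8.67) and Lin28b (7.17) overlapped as well.

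The Lin28 paralogs thus differed in level far more than either did between genotypes. Per kb of exon, Lin28a exceeded Lin28b by 22.7 and 46.7 times in the WT libraries and by 19.2 and 35.8 times in the Rest-/- libraries. Replicate 2 gave the higher ratio in both genotypes, since Lin28a was higher and Lin28b lower there, and the ranges of the genotypes overlapped.

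**Figure D4:**
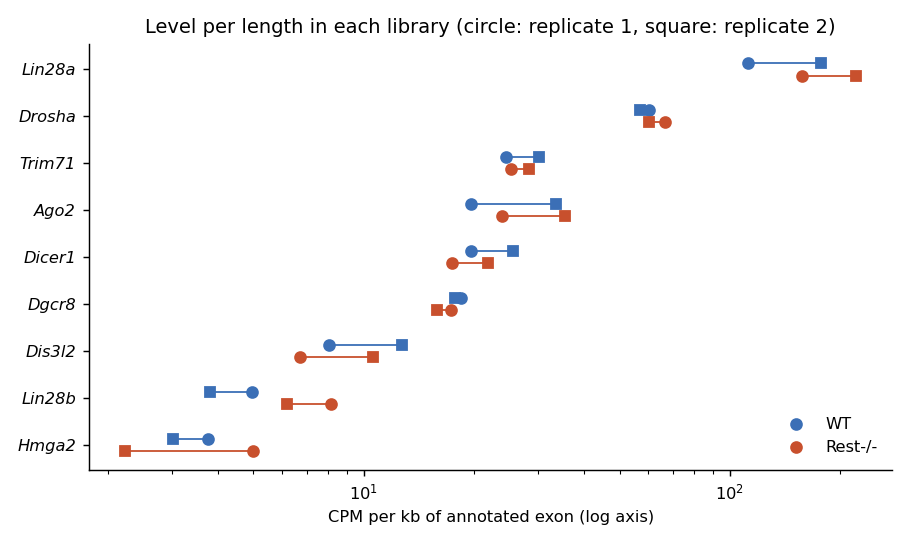
CPM per kb of annotated exon (log axis) for each gene in each library, WT in blue and Rest-/- in red, with circles for replicate 1, squares for replicate 2 and lines joining the replicates of a genotype. Lin28a lies above 100 in all 4 libraries and Lin28b and Hmga2 lie under 10 in all 4.

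REST binds a DNA element called RE1, so the letters of this element were searched near each gene. The search took TTCAGCACC, any 2 bases and GGACAG on both strands within 20 kb of an annotated start site in mm9, with up to 2 mismatches over the 15 letters, and 18.3% of 21911 genes held such a match. Lin28a, Lin28b and Drosha held one and the other 6 genes did not. Upstream of Lin28a lay a complete match at chr4:133576745-133576761, 1989 bases from the start site, and a second with 1 mismatch at chr4:133576715-133576731, both on the minus strand. A complete match was found at 0.612% of genes, and 2.73% held at least 2 matches. Lin28b held a match with 2 mismatches inside the gene at chr10:45203201-45203217, on the plus strand, and Drosha one with 2 mismatches at chr15:12737108-12737124, on the minus strand, 17462 bases upstream. Capitals mark the letters that match.
Lin28a, complete: TTCAGCACCagGGACAG
Lin28a, second: cTCAGCACCctGGACAG
Lin28b: TTCAGCACtgtGGtCAG
Drosha: TcCAGCACtgtGGACAG

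The promoter windows of RefSeq (GRCm38.p6, 250 bases before to 50 after a start) were given for 8 of the 9 genes and held none of these letters, which 0.143% of all 32851 windows held. For the 102 tested genes with a complete match within 20 kb the median log2 fold change was 0.50, with 80.4% of them above 0, beside a median of -0.0016 over the 14192 tested genes searched. Their lower and upper quartiles were 0.06 and 1.47, and by replicate number their medians were 0.53 (number 1) and 0.27 (number 2). Of the 102, which include Lin28a, 56 had a log2 fold change at or above the 0.38 of this gene. That rank is loose, since the Lin28a value ran from 0.09 to 0.75 when single libraries were left out. Whether the matched letters have a part in the level of Lin28a was not tested. With up to 1 mismatch the median was 0.14 over 480 genes (68.1% above 0), and with up to 2 mismatches, the class that takes in Lin28b and Drosha, it was 0.03 over 2933 genes (55.2% above 0). A match of letters is not a bound site, and binding was not analysed here.

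The other proteins that process or remove let-7 precursors were described as a list of 20 genes, of which 19 were tested. None was called, 11 lay above 0 and 8 below, and the median log2 fold change was 0.02. Tut7, one of the uridylyltransferases that LIN28 proteins recruit, was at 0 counts in all 4 libraries and is listed under its older symbol Zcchc6. Since the annotation behind the counts is not given, these counts do not show that the gene was silent. The highest were Zc3h12a, an RNase of hairpins, at 17.2 and 10.4 CPM in WT and 19.8 and 16.3 CPM in Rest-/- ESCs (log2 fold change 0.39), and Bcdin3d, a methyltransferase of precursor ends, at 0.18. The lowest were Msi1, an RNA-binding protein reported to act with LIN28, at -0.31, and Hnrnpa1, an antagonist of let-7 processing, at -0.23. All 4 overlapped between genotypes. Of the 19, 0 had both Rest-/- libraries above WT (16.5% of all tested genes) and 3 had both below (15.4% of all tested genes).

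The silencing machinery downstream of AGO2 was described in 20 genes, all tested, with 0 called, 7 above 0 and 13 below, and a median of -0.04. Mov10, a helicase found with Argonaute, had 181 and 209 CPM in WT and 109 and 139 CPM in Rest-/- ESCs. Both Rest-/- libraries were lower, and the log2 fold change of -0.65 (standard error 0.18) did not pass edgeR's quasi-likelihood test (adjusted p 0.610). Tnrc6c, one of the scaffolds that tie Argonaute to deadenylation, was at -0.33 and also did not overlap. The highest were Ddx6, a decapping helicase, at 0.17, with 291 and 308 against 339 and 335 CPM, and Ipo8, an importin that binds Argonaute, at 0.14. In this list 2 of 20 genes had both Rest-/- libraries above WT and 2 had both below, beside 16.5% and 15.4% of all tested genes.

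Known let-7 targets other than the 9 genes numbered 33, of which 32 were tested and Acvr1c, with at most 2 counts, was not. None was called, 20 lay above 0 and 12 below, and the median was 0.05. At the top were the cell cycle gene Ccnd2, with 16.0 and 4.93 CPM in WT and 32.4 and 16.4 CPM in Rest-/- ESCs (log2 fold change 1.22, standard error 0.67), and the growth regulator Myc, with 76.6 and 38.2 against 133 and 79.9 CPM (0.89, standard error 0.43). Both were higher in both Rest-/- libraries, and both were lower in replicate 2 of each genotype. At the bottom was Igf2bp2, an RNA-binding protein that sustains growth-related messages, with 104 and 148 CPM in WT and 51.5 and 69.3 CPM in Rest-/- ESCs. Its log2 fold change of -1.06 (standard error 0.26) had an adjusted p of 0.520 in edgeR's quasi-likelihood test. Ccnd1 followed at -0.33, with 241 and 238 against 201 and 181 CPM. Both Rest-/- libraries lay above both WT libraries for 7 of the 32 and below them for 5, where the shares over all tested genes were 16.5% and 15.4%.

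Genes reported as targets of TRIM71 were 5, all tested, with 0 called, 3 above 0 and 2 below, and a median of 0.12. The pocket protein gene Rbl2 had 34.3 and 14.3 CPM in WT and 13.7 and 9.80 CPM in Rest-/- ESCs (log2 fold change -1.05, standard error 0.49), and Rbl1 was at -0.38, both without overlap, as 15.4% of all tested genes were. Mbnl1, a splicing regulator, was at 0.52 and Egr1, an immediate early transcription factor, at 0.32, both with overlap.

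**Figure D5:**
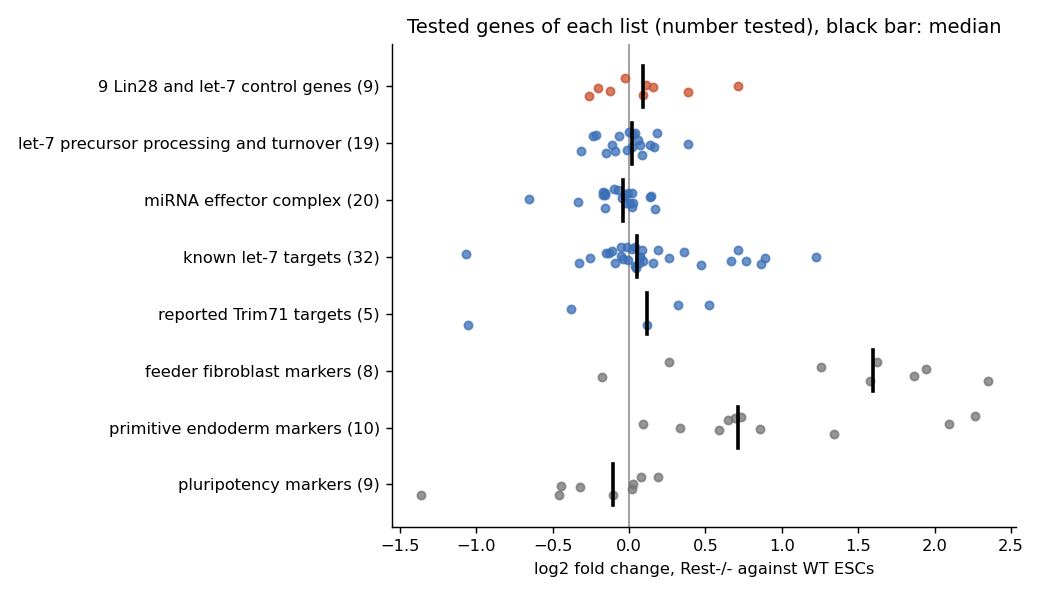
Log2 fold change of Rest-/- against WT for every tested gene of each list (points), with the median as a black bar and the number tested in parentheses. The medians of the 9 genes and of the 4 pathway lists lie between -0.04 and 0.12, while those of the feeder fibroblast and primitive endoderm markers lie at 1.60 and 0.71. Within replicate numbers 1 and 2 the feeder fibroblast medians were 1.47 and 0.14.

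Genes with and without the seed match had nearly the same median difference over the transcriptome. Tested genes with at least 1 match in the 3' UTR, 1423 in all, had a median of -0.00059 on the log2 fold change scale, with 49.9% above 0, beside a median of 0.0010 for the 12011 genes without a match. Of the genes without a match 50.3% lay above 0. The 492 genes with the longer match had a median of 0.0095, with 52.0% above 0. The 24 genes with 3 or more matches, a class that includes Lin28b and Hmga2, had a median of -0.03, with 37.5% above 0. Of the 1423 genes with a match 1 was called, higher in Rest-/- ESCs, and of the 12011 without a match 5 were called, 4 higher and 1 lower.

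Among the 76 tested genes of the 4 pathway lists, those whose log2(CPM + 0.5) values, centred over the 4 libraries, lay nearest to Lin28a were Cdk6, Prkra and Nr6a1, with root mean square differences of 0.03, 0.11 and 0.15. Cdk6, a cell cycle kinase, had 14.7 and 24.3 CPM in WT and 20.4 and 29.7 CPM in Rest-/- ESCs, a log2 fold change of 0.36. Nr6a1, an orphan nuclear receptor of early development, had 83.3 and 140 CPM in WT and 137 and 218 CPM in Rest-/- ESCs, a log2 fold change of 0.67. Prkra, a partner of Dicer, was at 11.3 and 18.3 CPM in WT and had a log2 fold change of 0.16. The choice itself fixes the likeness to Lin28a, which covers 4 libraries only. That all 3 were higher in replicate 2 than in replicate 1 of both genotypes, as Lin28a was, is therefore no separate result.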

How the data were processed

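Counts of reads per gene from RNA-seq of 4 mouse ESC libraries (2 WT, 2 Rest-/-) were used as deposited by the authors, who mapped reads with Subread and counted them with featureCounts; the submitters' processing notes name mm9, while the annotation, the tool versions and the use of strand are not given in the sources used here. Rows were keyed by Entrez identifier, and 368 empty rows were left out. Genotypes came from the labels.

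Counts were compared in edgeR 4.0.16 (R 4.3.3) with TMM scaling, filterByExpr, the quasi-likelihood test, a prior count of 0.125 and Benjamini-Hochberg adjustment over all 15444 tested genes, with a threshold of 0.05. The scripts were checked on simulated counts, which do not carry the spread between the real replicates and so do not measure how many real changes the test recovers. Positions, exon lengths and 3' UTRs came from GENCODE M1 on NCBIM37 (mm9), and miRNA and promoter sequences from RefSeq (GRCm38.p6). Near-identical copies were searched with BLAST+ 2.17.0 at 90% identity or more. Motif searches compared letters alone.

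The members and the gene lists were chosen with earlier results of these data known. Genes named are the 9 members, Rest, the let-7 hairpin genes, the 2 highest and 2 lowest tested genes of each pathway list with at least 1 CPM in the higher genotype, any list gene called, and the 3 list genes nearest to Lin28a. Untested genes of the pathway and feeder lists and genes that share exonic bases with a member are named as well. Marker genes are otherwise given as lists, and single pluripotency markers and Scg2 were named after their values were seen. Alternatives were scaling by RLE, by the upper quartile or by library size alone, 2 other filters, the replicate number as a block, edgeR's exact test with tag-wise or common dispersion, DESeq2 1.42.0, a prior count of 2, each library left out in turn, longer let-7 sites and a stricter RE1 match. Intervals from edgeR rest on 2 libraries per genotype, which the authors describe as biological replicates and which come from 1 line per genotype. Floors of 3 counts cover counting error only.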

Additional observations from a re-analysis of the deposited data

How the results depend on the processing

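Under the alternatives that kept all 4 libraries (90 values over the 9 genes), the log2 fold change of every gene kept its direction, and the 3 that passed the threshold did so with the replicate number as a block: Lin28a at 0.40 (adjusted p 0.00268), Lin28b at 0.71 (adjusted p 0.000452) and Dicer1 at -0.20 (adjusted p 0.0395), all edgeR. That block raised the genes called from 9 to 2621 (1308 higher, 1313 lower). Differences between replicates correlated across genes between the genotypes (Pearson r 0.81), but the labels link the numbers to nothing, and with 2 pairs the numbers were not taken as a pairing. The genes called were 53 without a filter on low counts, 3 with at least 10 counts in every library, 274 and 343 with edgeR's exact test (tag-wise and common dispersion), 238 with DESeq2 and 60 to 113 without 1 library, and 9 or 10 under the other scalings. The cause of these differences was not tested. None of the fits without 1 library called any of the 9 genes.

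Without single libraries, the log2 fold change ran from -0.17 to 0.13 for Trim71, -0.63 to 0.11 for Dis3l2, -0.38 to 0.0028 for Dicer1, -0.18 to 0.60 for Ago2 and -0.60 to 0.55 for Hmga2, and 9 of the 36 fits over the 9 genes turned the direction; Lin28a, Lin28b, Drosha and Dgcr8 kept theirs. The list medians ran from -0.05 to 0.02 (precursor processing), -0.10 to -0.03 (effector complex), 0.03 to 0.12 (let-7 targets) and -0.21 to 0.25 (Trim71 targets). Requiring the longer let-7 site left 6 of 13 sites in 4 of 5 genes, and allowing 1 RE1 mismatch left 1 of 3 genes, Lin28a. The median standard error over all tested genes was 0.28, with 2 libraries per genotype.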
